A study of Homo sapiens with 18 samples.

Results

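The 9 genes that encode the enzymes of fatty acid synthesis, elongation and desaturation were followed across 18 RNA-seq libraries of 2 human pancreatic cancer cell lines. The members, ACLY, ACSS2, ACACA, FASN, SCD, ELOVL5, ELOVL6, FADS1 and FADS2, were chosen by name as lipogenic enzymes of the type controlled by SREBP factors. All 9 had a row among the 26249 gene rows of the deposited table, and all 9 were among the 11477 genes tested, those with a mean of at least 1 FPKM. PATU-8902 and PATU-8988T are established lines of pancreatic ductal adenocarcinoma. Each line was treated with 2.5 µM DCLK1-IN-1, which inhibits the kinase DCLK1, for 6 h (3 libraries) or 24 h (3 libraries), or with the vehicle DMSO for 24 h (3 libraries). All groups grew in the same medium with serum, and no DMSO group at 6 h was analysed here. The inhibitor and the earlier time cannot be told apart in the 6 h comparisons. The series record calls the libraries biological triplicates.

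Cells that make fatty acids start from cytosolic acetyl-CoA, which ATP citrate lyase (ACLY) cuts from citrate and the synthetase ACSS2 makes from acetate. Acetyl-CoA carboxylase (ACACA) turns it into malonyl-CoA, and fatty acid synthase (FASN) joins these units into palmitate. Palmitate is lengthened by the elongase ELOVL6 and given its double bond by the stearoyl-CoA desaturase SCD, while ELOVL5, FADS1 and FADS2 lengthen and desaturate the polyunsaturated chains. The SREBP transcription factors switch on many of these genes, and INSIG1 holds their precursors in the endoplasmic reticulum when sterols are plentiful.

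The RefSeq promoter table (assembly GRCh38.p14, 250 bases before to 50 after a start) held 13 windows for 8 of the 9 members, and no window is shown for FASN. The windows below belong to the 3 genes that rose under the inhibitor, ACSS2 (both RefSeq starts), ELOVL6 and SCD, and to FADS1, the one of the 9 whose level differed most between the lines. They read 5′ to 3′ on the strand of the gene. Capitals mark the CCAAT box, spelled by those letters, and the motif GGGCGG, known as the GC box, on either strand, so either motif can also appear as its reverse complement. The windows lie at chr20:34874739-34875038 (+) and chr20:34876362-34876661 (+) for ACSS2, chr4:110198566-110198865 (-) for ELOVL6, chr10:100346983-100347282 (+) for SCD and chr11:61816954-61817253 (-) for FADS1.
ACSS2, first start: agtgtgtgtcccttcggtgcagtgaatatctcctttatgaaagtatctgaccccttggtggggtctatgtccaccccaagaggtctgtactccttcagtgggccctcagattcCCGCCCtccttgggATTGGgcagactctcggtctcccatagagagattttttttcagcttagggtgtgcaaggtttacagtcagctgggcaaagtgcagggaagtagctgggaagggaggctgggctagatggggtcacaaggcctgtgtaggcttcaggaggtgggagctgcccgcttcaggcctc
ACSS2, second start: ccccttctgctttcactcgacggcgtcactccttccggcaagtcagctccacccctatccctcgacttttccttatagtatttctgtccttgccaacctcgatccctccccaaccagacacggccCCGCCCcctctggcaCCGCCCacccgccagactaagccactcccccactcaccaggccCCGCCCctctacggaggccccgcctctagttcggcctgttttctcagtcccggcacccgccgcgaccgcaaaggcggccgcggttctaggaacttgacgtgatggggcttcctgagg
ELOVL6: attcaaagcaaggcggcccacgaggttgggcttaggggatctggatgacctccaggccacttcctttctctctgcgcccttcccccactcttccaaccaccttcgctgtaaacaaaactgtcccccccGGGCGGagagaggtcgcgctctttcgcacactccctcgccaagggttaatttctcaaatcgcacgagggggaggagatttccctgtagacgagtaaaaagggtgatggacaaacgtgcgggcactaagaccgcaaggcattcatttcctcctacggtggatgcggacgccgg
SCD: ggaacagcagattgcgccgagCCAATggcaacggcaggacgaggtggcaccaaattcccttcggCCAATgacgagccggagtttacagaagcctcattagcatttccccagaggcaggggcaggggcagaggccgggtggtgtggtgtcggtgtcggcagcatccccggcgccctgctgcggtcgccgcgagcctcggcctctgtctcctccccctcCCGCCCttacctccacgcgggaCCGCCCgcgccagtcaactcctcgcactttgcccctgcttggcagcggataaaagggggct
FADS1: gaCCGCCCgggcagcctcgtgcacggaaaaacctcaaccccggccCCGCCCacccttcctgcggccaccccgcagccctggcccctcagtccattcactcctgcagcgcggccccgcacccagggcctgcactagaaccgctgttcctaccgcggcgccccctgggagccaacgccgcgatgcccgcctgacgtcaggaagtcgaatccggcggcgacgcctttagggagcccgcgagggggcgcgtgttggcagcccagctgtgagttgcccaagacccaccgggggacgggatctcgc

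The SCD window held 2 CCAAT boxes and 2 GC boxes, and the ELOVL6 window held 1 GC box and no CCAAT box. The first ACSS2 window held 1 of each, the second held 3 GC boxes, and the FADS1 window held 2 GC boxes. The sterol response core TCACNCCAC, sought on both strands, was in 0 of the 13 windows and in 1.13% of all 35116 promoters of that length. CACGTG, an E-box that reads the same on both strands, was in 1 window (ELOVL5) and in 7.26% of all promoters. CCAAT was in 8 of the 13 windows and in 34.6% of all promoters, and GGGCGG was in 10 windows and in 45.0% of all promoters. Matches of different motifs may overlap and were counted for each motif, and overlapping windows of 1 gene were counted separately. These are matches of letters in short windows.

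The libraries differed in overall level. The median FPKM of the genes tested ran from 6.12 to 17.4 and was lowest in PATU-8988T DMSO replicate 1, against 12.1 and 10.2 in the other DMSO libraries of that line. FPKM is the fragment number per length of transcript, so levels of different genes can be compared, and the deposited values are on the study's spike-in scale. The spike-ins went into RNA matched by cell count, so RNA per cell and errors of that matching cannot be told apart in a library's level. Changes are given as deposited and after median-centring, which gives all libraries the same median log2 level. Centring also removes any real shift that most genes share. All fold changes are on the scale log2(FPKM + 1), which understates the change of low genes, and a gene passed at a limma adjusted p below 0.05. DCLK1 averaged 21.2 to 29.2 FPKM over the 6 groups and passed in none of the 4 drug comparisons on either scale. Of 6 epithelial markers, all 6 reached a mean of 1 FPKM in PATU-8902 and 3 did in PATU-8988T (summed FPKM 2881 to 5304 and 381 to 973), where KRT19, KRT7 and CDH1 were at or near the floor of the table. No fibroblast, endothelial or adipocyte marker reached a mean of 1 FPKM in either line, and CD68 was the only leukocyte marker that did.

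After 24 h of inhibitor, PATU-8902 cells held 1.89 to 1.93 times the DMSO level of 3 of the 9 enzyme transcripts. ACSS2 (1.93-fold), ELOVL6 (1.92-fold) and SCD (1.89-fold) rose after median-centring, while FASN, ACLY, ELOVL5, ACACA and FADS2 did not pass and FADS1 was too close to the floor to be read. These 3 calls of 9 members stood against 0.444% of all tested genes (51 of 11477). The members and the centred scale were chosen with earlier results of these data known, so this comparison of shares is a description only. The median centred log2 change was 0.34 over the 9 members and -0.02 over all tested genes.

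SCD, which makes the monounsaturated fatty acids of membranes and stores, was the most abundant member in this line. It measured 300.1, 285.6 and 448.6 FPKM in the 24 h libraries, against 203.8, 155.1 and 156.5 FPKM in DMSO. All 3 inhibitor libraries lay above all 3 DMSO libraries. The centred log2 levels were 7.99, 7.96 and 8.15 at 24 h and 7.22, 7.04 and 7.08 in DMSO, a change of 0.92 ± 0.08 (SE, n = 3 per group; limma adjusted p = 3.96e-06).

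ELOVL6, the elongase that makes stearate from palmitate, measured 33.99, 33.96 and 45.6 FPKM at 24 h and 20.06, 17.09 and 17.44 FPKM in DMSO. Its libraries did not overlap between the groups either. The centred log2 change was 0.94 ± 0.06 (limma adjusted p = 1.04e-07), the most precise of the 3. ACSS2, which recovers acetyl-CoA from acetate, measured 14.12, 12.17 and 16.84 FPKM at 24 h and 8.097, 6.543 and 5.307 FPKM in DMSO. Every 24 h library again lay above every DMSO library, with a centred log2 change of 0.95 ± 0.08 (limma adjusted p = 5.28e-06). Leaving out any 1 of the 6 libraries kept the 3 calls.

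FASN, the synthase itself, measured 30.29, 25.41 and 40.56 FPKM at 24 h and 26.61, 16.79 and 18.55 FPKM in DMSO, where the ranges overlapped as deposited. After centring the 24 h libraries lay above those of DMSO, and its log2 change of 0.55 ± 0.13 did not pass (limma adjusted p = 0.138). ACLY at 0.34 ± 0.11, ELOVL5 at 0.34 ± 0.10 and ACACA at 0.21 ± 0.08 did not pass, each with 3 of 3 centred 24 h libraries above those of DMSO. Here and elsewhere such separation is a description only, and its share over all tested genes was not counted. With 3 libraries against 3, an exact permutation test can give no p below 0.1. As deposited, ACLY, which supplies acetyl-CoA from citrate, measured 57.32, 52.64 and 86.34 FPKM at 24 h and 61.08, 40.9 and 44.36 FPKM in DMSO, which overlap. ACACA, which commits acetyl-CoA to fatty acids, measured 36.85, 35.0 and 54.88 FPKM at 24 h and 38.24, 31.56 and 32.94 FPKM in DMSO, which overlap as well. ELOVL5, the elongase of polyunsaturated chains, measured 39.15, 35.75 and 55.67 FPKM at 24 h and 32.09, 31.99 and 31.95 FPKM in DMSO, without overlap. FADS2, the desaturase that starts the polyunsaturated pathway, averaged 2.70 ± 0.48 FPKM at 24 h and 2.57 ± 0.56 FPKM in DMSO (SD, n = 3 each), with a centred log2 change of -0.01 and a 95% interval of -0.20 to 0.19. FADS1 lay close to the floor of the table in this line and is given no fold change there.

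As deposited, 0 of the 9 members passed in the same comparison, beside 0.113% of tested genes. The log2 changes were 1.01 ± 0.26 for ACSS2, 1.01 ± 0.24 for ELOVL6 and 0.98 ± 0.31 for SCD, with limma adjusted p of 0.412, 0.288 and 0.9999. These 3 members, among 168 genes, had an unadjusted p below 0.05. The size of the change was nearly the same on both scales, and the standard errors were 3 to 4 times larger as deposited, where libraries of 1 group differed in overall level.

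**Figure D1:**
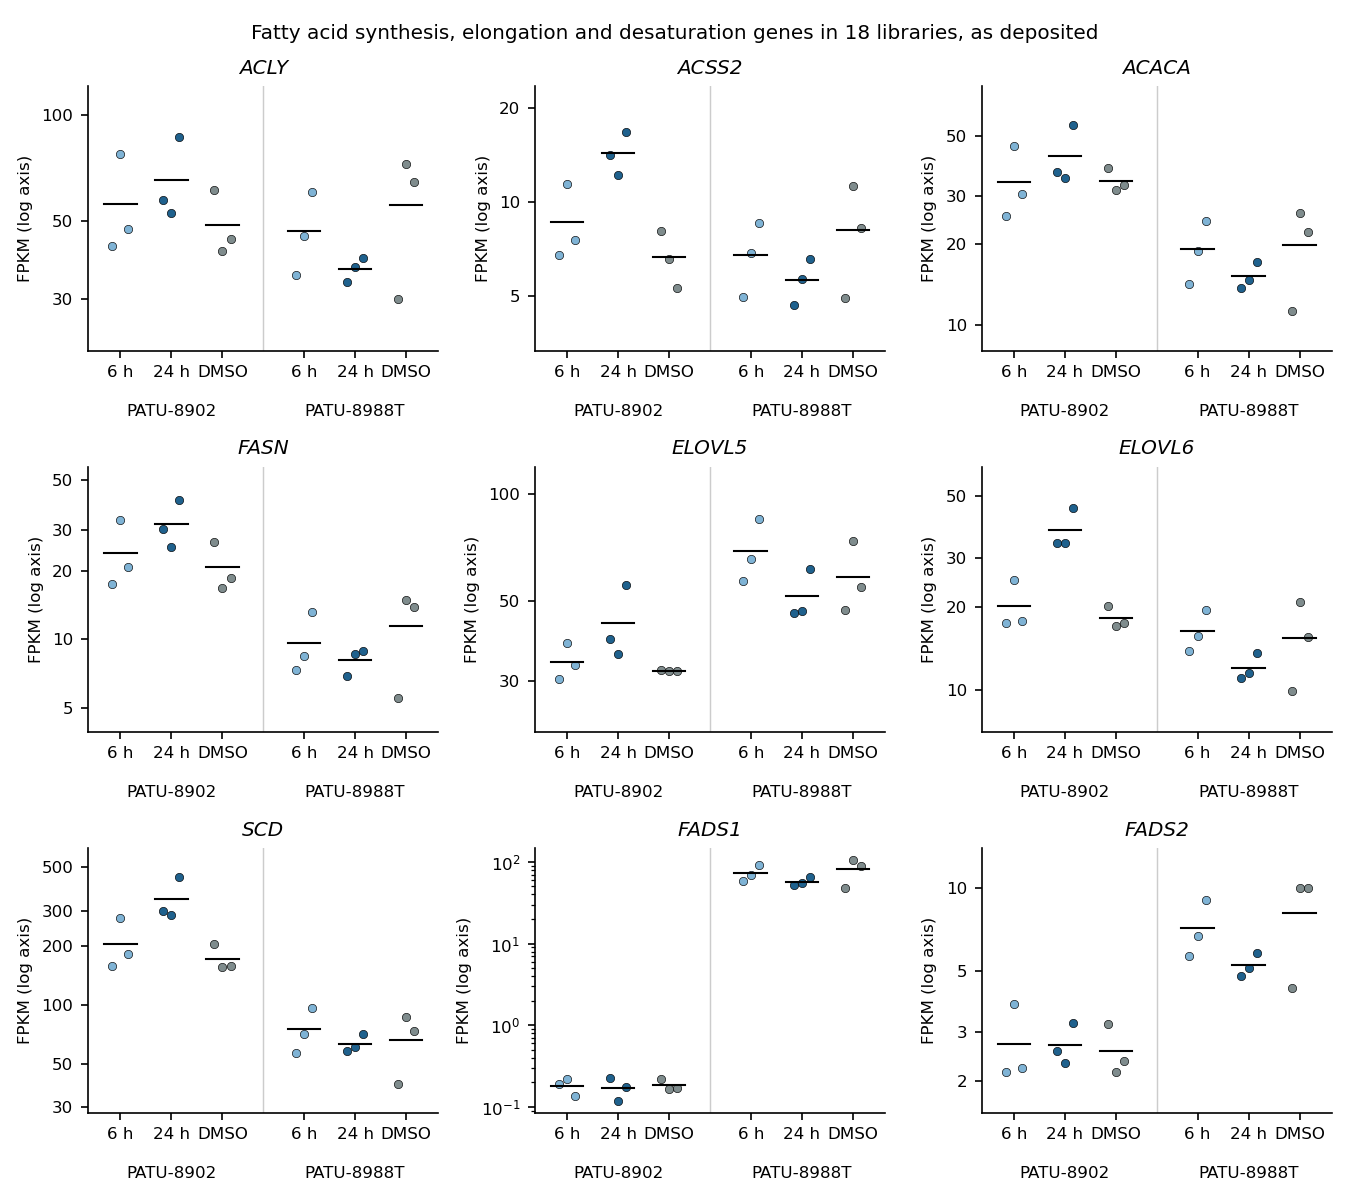
FPKM of each of the 9 genes (log axis) in the 6 h, 24 h and DMSO libraries of PATU-8902 (left) and PATU-8988T (right); points are libraries and lines are group means. ACSS2, ELOVL5, ELOVL6 and SCD of PATU-8902 at 24 h lie above DMSO in all 3 libraries, and FADS1 is at 0.12 to 0.22 FPKM in PATU-8902 and at 48.0 to 105.6 FPKM in PATU-8988T.

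At 6 h the enzyme genes of PATU-8902 had moved little. None of the 9 passed on either scale, against 0.113% of tested genes centred and 0.00871% as deposited. ACSS2 was at 6.785, 11.44 and 7.572 FPKM at 6 h and at 8.097, 6.543 and 5.307 FPKM in DMSO, which overlap. Centred, ACSS2 stood at 0.36 ± 0.08 (limma adjusted p = 0.249), SCD at 0.26 ± 0.08 and ELOVL6 at 0.17 ± 0.06, each with its 3 libraries above those of DMSO. An unadjusted p below 0.05 was reached by 3 members and 270 genes centred, and by 0 members and 79 genes as deposited. The SCD libraries at 6 h read 156.8, 274.8 and 180.6 FPKM and those of ELOVL6 17.54, 24.89 and 17.82 FPKM.

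Between 6 h and 24 h of inhibitor the same 3 genes rose in PATU-8902. ELOVL6 rose by a centred log2 change of 0.78 ± 0.06 (limma adjusted p = 5.26e-06), SCD by 0.66 ± 0.08 (adjusted p = 5.73e-04) and ACSS2 by 0.59 ± 0.08 (adjusted p = 0.00351), and the 3 calls held in each of 6 fits without 1 library. The background was 0.244% of tested genes. FASN at 0.33 ± 0.13, ELOVL5 at 0.23 ± 0.10 and ACACA at 0.22 ± 0.08 did not pass. As deposited 0 of 9 members and 0% of tested genes passed, while 197 tested genes, 3 of them members, had an unadjusted p below 0.05. The 24 h group is shared with the comparison against DMSO, so these values are not separate evidence.

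**Figure D2:**
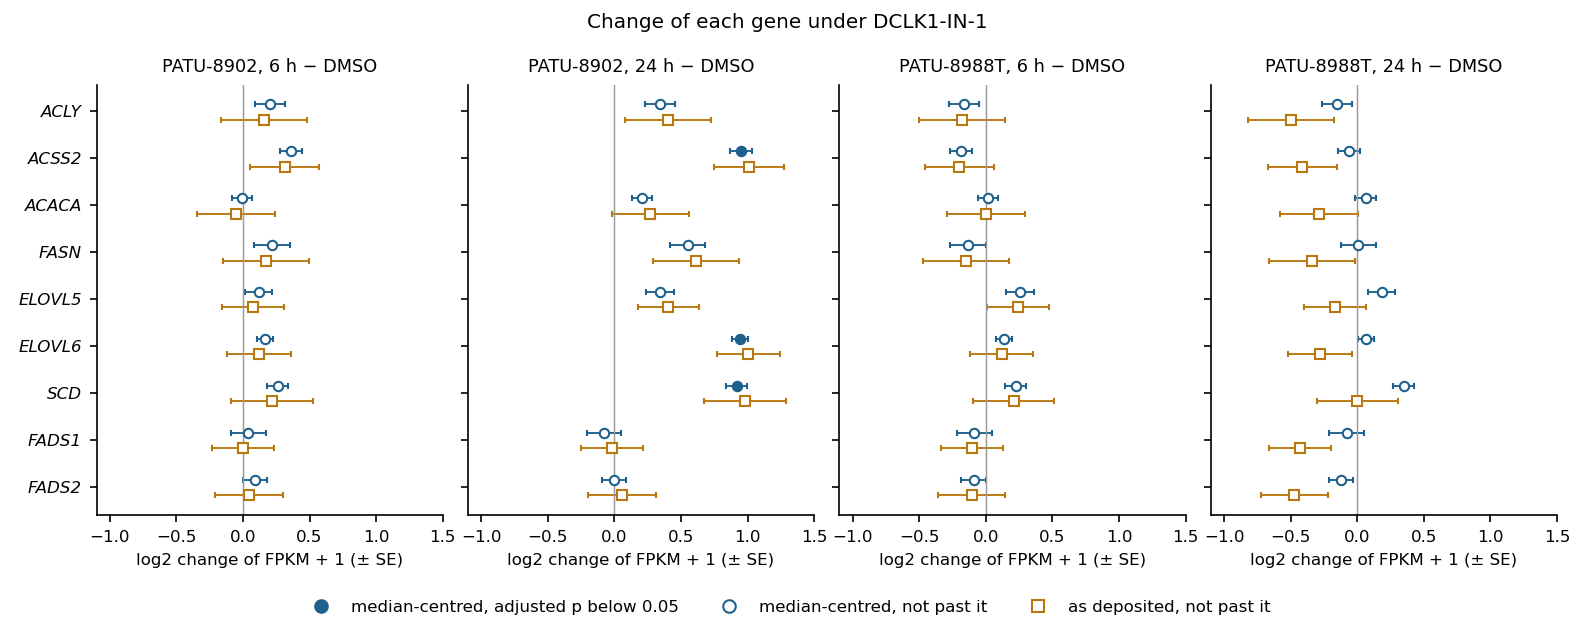
Change of each gene (rows) against DMSO in log2 units ± SE, for PATU-8902 and PATU-8988T at 6 h and 24 h; circles are centred, squares as deposited, and filled symbols passed. Only ACSS2, ELOVL6 and SCD in PATU-8902 at 24 h are filled, at 0.95, 0.94 and 0.92.

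In PATU-8988T none of the 9 enzyme genes passed at 24 h on either scale, and neither did any other gene (0% of those tested, limma; 1923 genes and 1 member, SCD, had an unadjusted p below 0.05 centred, and 687 genes and 0 members as deposited). SCD measured 58.17, 60.78 and 71.11 FPKM at 24 h and 39.45, 86.72 and 73.18 FPKM in DMSO, which overlap. Its centred log2 change was 0.35 ± 0.08 (limma adjusted p = 0.295), with 3 of 3 libraries higher. ELOVL6 measured 11.12, 11.51 and 13.59 FPKM at 24 h and 9.937, 20.8 and 15.61 FPKM in DMSO. ACSS2 measured 4.668, 5.657 and 6.571 FPKM at 24 h and 4.931, 11.27 and 8.253 FPKM in DMSO. Both spread widely in DMSO, with replicate 1 lowest. The centred changes were 0.07 for ELOVL6 with a 95% interval of -0.06 to 0.20, and -0.06 for ACSS2 with an interval of -0.24 to 0.11. The other 6 members lay between -0.15 (ACLY) and 0.18 (ELOVL5). As deposited, the median change was -0.34 over the 9 members and -0.35 over all tested genes, a shift between the 24 h and DMSO libraries that centring removes. FASN measured 6.932, 8.63 and 8.926 FPKM at 24 h and 5.53, 14.86 and 13.87 FPKM in DMSO, which overlap.

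At 6 h in PATU-8988T 0 of 9 members passed, with 0.0784% of genes called by limma after centring and 0% as deposited. An unadjusted p below 0.05 was reached by 4 members and 3390 genes centred, and by 0 members and 287 genes as deposited. ELOVL5 stood at 0.26 ± 0.10, SCD at 0.22 ± 0.08 with 3 of 3 libraries higher, and ACSS2 at -0.18 ± 0.08 with 3 of 3 lower, all centred. ACSS2 was at 4.949, 6.846 and 8.552 FPKM in these libraries. From 6 h to 24 h, 0 of 9 members and 0% of genes passed on either scale, with 544 genes at an unadjusted p below 0.05 centred and 665 as deposited, none of them a member.

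The comparisons with DMSO in PATU-8988T rested on 1 library. Without DMSO replicate 1, 6 of 9 members fell at 24 h as deposited, namely ACLY, ACSS2, FASN, ELOVL6, FADS1 and FADS2, in a fit that called 56.8% of all genes. Their log2 changes ran from -0.89 (ACLY) to -0.55 (ELOVL6). Centred, the same fit called ACLY lower (-0.28) and SCD (0.27) and ELOVL5 (0.30) higher at 24 h, beside 40.8% of genes. At 6 h it called ACLY lower (-0.30) and ELOVL5 higher (0.37), beside 42.6% of genes.

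The 24 h response of 3 genes differed between the lines by the test of the difference itself. The interaction (PATU-8902 change minus PATU-8988T change, centred log2) was 1.01 ± 0.12 for ACSS2 (limma adjusted p = 3.51e-04), 0.88 ± 0.08 for ELOVL6 (adjusted p = 6.02e-05) and 0.57 ± 0.11 for SCD (adjusted p = 0.0461). These 3 of 9 members stood beside 0.227% of tested genes. With 1 library left out, ACSS2 and ELOVL6 kept their calls in 12 of 12 cases, and SCD in 2 of 12, those without DMSO replicate 1 of PATU-8902 or of PATU-8988T. Over those 12 cases the SCD difference ran from 0.51 to 0.65 and its adjusted p from 0.00377 to 0.169. SCD was higher than DMSO in every centred 24 h library of both lines. As deposited 0 of 9 passed, beside 0.00871% of genes. ELOVL6 passed as deposited without PATU-8988T DMSO replicate 1 (1.55, limma adjusted p = 0.0423). That deposited fit called 14 genes, against 1 with all libraries. FASN at 0.54 ± 0.19 and ACLY at 0.49 ± 0.16 did not pass, except in the centred fit without that library (0.70 and 0.63). That centred fit called 636 genes, against 26 with all libraries. At 6 h 0 of 9 members and 0% of genes passed by limma (1385 genes and 2 members at an unadjusted p below 0.05 centred, 99 genes and 0 members as deposited). ACSS2 stood at 0.54 ± 0.12 (limma adjusted p = 0.392), and it passed without PATU-8988T DMSO replicate 1, as did ACLY and FASN. The 6 h centred fit without that library called 2308 genes, against 0 with all libraries.

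Ratios of FPKM within 1 library do not depend on how libraries are scaled, and they are given here as a description, chosen after the values were seen. The ratio of SCD to ACACA in PATU-8902 was 6.20, 5.99 and 5.91 at 6 h, 8.15, 8.16 and 8.17 at 24 h, and 5.33, 4.91 and 4.75 in DMSO. In PATU-8988T it was 4.01, 3.80 and 3.97 at 6 h, 4.24, 4.14 and 4.15 at 24 h, and 3.52, 3.34 and 3.32 in DMSO. Within each line the 3 groups did not overlap, with DMSO lowest and 24 h highest in both. SCD made up 53.2 ± 0.71% of the summed FPKM of the 9 genes at 6 h, 59.0 ± 0.67% at 24 h and 51.2 ± 0.63% in DMSO in PATU-8902 (SD, n = 3 each). In PATU-8988T its share was 23.1 ± 0.54% at 6 h, 24.9 ± 0.29% at 24 h and 20.4 ± 0.61% in DMSO.

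A pair of other ratios separated 24 h from DMSO in PATU-8902 and overlapped in PATU-8988T. The PATU-8902 libraries at 6 h overlapped those of DMSO in both, at 0.148 to 0.161 for ACSS2 to ACLY and 0.536 to 0.652 for ELOVL6 to ELOVL5. ACSS2 to ACLY, the acetate enzyme against the citrate enzyme, was 0.246, 0.231 and 0.195 at 24 h and 0.133, 0.160 and 0.120 in DMSO in PATU-8902. In PATU-8988T the values were 0.139, 0.153 and 0.168 at 24 h and 0.165, 0.156 and 0.128 in DMSO, which overlap. ELOVL6 to ELOVL5 was 0.868, 0.950 and 0.819 at 24 h and 0.625, 0.534 and 0.546 in DMSO in PATU-8902. In PATU-8988T it ran from 0.221 to 0.244 at 24 h and from 0.210 to 0.285 in DMSO. SCD to ELOVL6, 2 genes that both rose in PATU-8902, averaged 9.03 ± 0.74 at 24 h and 9.40 ± 0.66 in DMSO there, and the ranges overlap. In PATU-8988T the same ratio was 5.25 ± 0.03 at 24 h and 4.28 ± 0.37 in DMSO (SD, n = 3 each), without overlap.

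**Figure D3:**
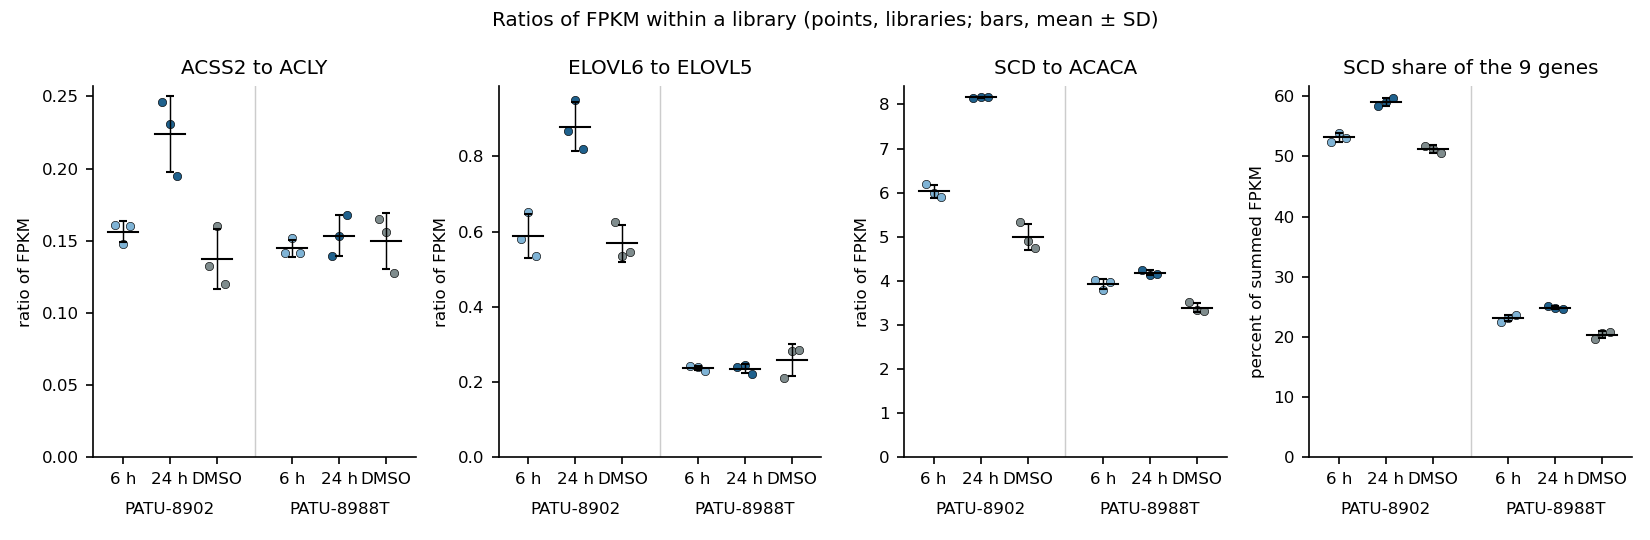
Ratio of the FPKM of 2 genes in each library, and SCD as a percent of the 9 genes summed, for the 6 h, 24 h and DMSO libraries of PATU-8902 and PATU-8988T; bars are mean ± SD (n = 3). SCD to ACACA is 8.15 to 8.17 at 24 h against 4.75 to 5.33 in DMSO in PATU-8902, and 4.14 to 4.24 against 3.32 to 3.52 in PATU-8988T.

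The lines differed in these enzymes before any inhibitor was added. As deposited, 6 of 9 members passed between PATU-8902 and PATU-8988T in DMSO, against 54.2% of all tested genes. ACACA, FASN and SCD were higher in PATU-8902 (3 of 9, background 41.8% higher) and ELOVL5, FADS1 and FADS2 were lower (3 of 9, background 12.4% lower). FADS1 entered the tested genes only through its level in PATU-8988T and had to differ. Without it, 5 of 8 members passed as deposited and 8 of 8 centred. Centred, 9 of 9 passed against 72.2% of genes, 3 higher (background 34.4%) and 6 lower (background 37.8%), with ACLY, ACSS2 and ELOVL6 added to the lower ones. ELOVL6 turned its sign, at 0.28 as deposited and -0.23 centred. The median over all tested genes was 0.45 as deposited and -0.05 centred. Centred, SCD differed by 0.92 ± 0.08, ACACA by 0.34 ± 0.08 and FASN by 0.38 ± 0.13, and on the lower side ELOVL5 by -1.33 ± 0.10, ACSS2 by -0.71 ± 0.08 and ACLY by -0.61 ± 0.11. Most genes differ between these lines, so the counts say little about the pathway. ACACA as deposited, and FASN on both scales, kept the call in 4 of 6 leave-one-out cases, and lost the call without PATU-8902 DMSO replicate 1 or PATU-8988T DMSO replicate 1. As deposited, ACACA was then at 0.76 and 0.49 and FASN at 0.69 and 0.47, and centred FASN was at 0.27 and 0.22.

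FADS1, which makes arachidonic acid by adding its last double bond, was nearly silent in PATU-8902 and among the most abundant members in PATU-8988T. The PATU-8902 libraries held 0.189, 0.220 and 0.138 FPKM at 6 h, 0.224, 0.120 and 0.175 FPKM at 24 h and 0.219, 0.166 and 0.169 FPKM in DMSO, where the floor of the table lay between 0.0963 and 0.118 FPKM. The PATU-8988T libraries held 57.68, 69.32 and 91.6 FPKM at 6 h, 51.48, 54.98 and 64.9 FPKM at 24 h and 48.03, 105.6 and 89.36 FPKM in DMSO. The lowest PATU-8988T library stood at 48.03 FPKM and the highest of PATU-8902 at 0.224 FPKM, so the lines are far apart. FADS1 passed the filter on low values only through PATU-8988T, so its difference is given by these levels, with no test.

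The other desaturases of that gene cluster were lower in PATU-8902 too, by less. FADS2 averaged 2.57 ± 0.56 FPKM in PATU-8902 DMSO and 8.12 ± 3.27 FPKM in PATU-8988T DMSO (SD, n = 3 each), a log2 difference of -1.29 ± 0.25 as deposited and -1.79 ± 0.09 centred. FADS3, the third desaturase of the cluster, averaged 3.76 ± 0.84 FPKM in PATU-8902 DMSO and 28.6 ± 13.6 FPKM in PATU-8988T DMSO (centred log2 -3.02 ± 0.14, limma adjusted p = 1.29e-11). FADS1 and FADS2 overlap in RefSeq, and the sources do not state if reads were assigned by strand, so part of 1 may be counted to the other. The genes on the other side of FADS1 in RefSeq order did not share the pattern. FEN1, a DNA repair nuclease, ran from 73.3 to 135.1 FPKM over the 9 PATU-8902 libraries and from 52.9 to 110.0 FPKM over the 9 of PATU-8988T. TMEM258 ran from 82.2 to 197.9 FPKM and from 68.8 to 174.1 FPKM in the same order, and the lines overlap for both genes. MYRF, a transcription factor gene, was higher in PATU-8902, at 4.18 to 6.95 FPKM against 0.482 to 1.02 FPKM in PATU-8988T. These neighbours were chosen by position, and their levels carry no test.

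**Figure D4:**
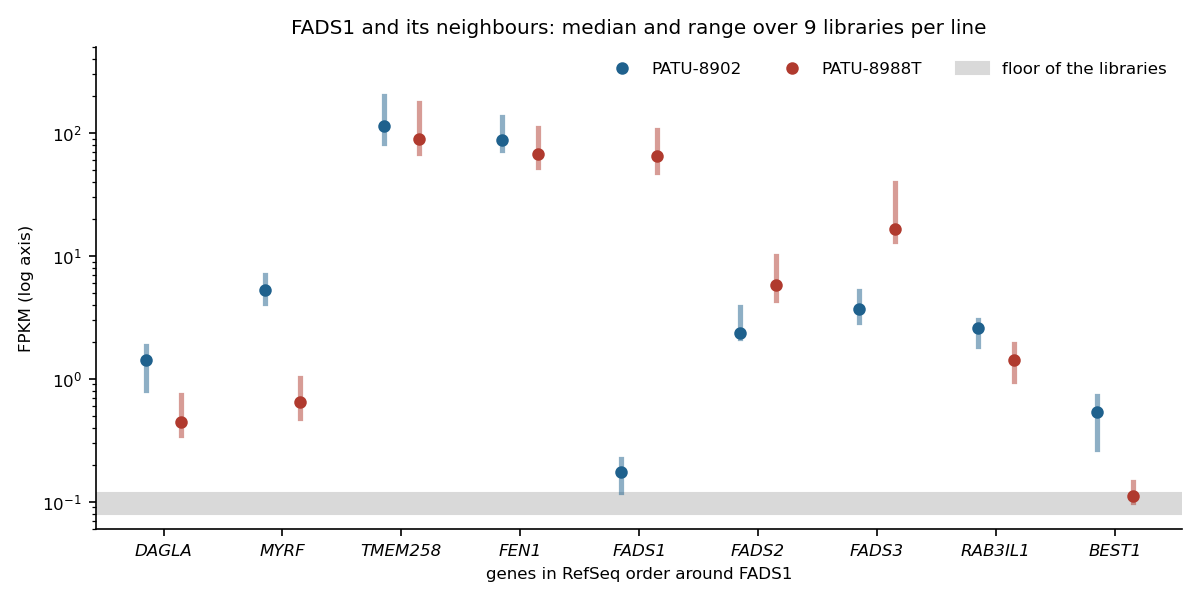
Median (point) and range (bar) of FPKM on a log axis over the 9 libraries of PATU-8902 and of PATU-8988T for FADS1 and the genes next to it in RefSeq order; the grey band is the floor of the libraries. FADS1 is at 0.175 FPKM in PATU-8902 and 64.9 FPKM in PATU-8988T (medians), while FEN1 and TMEM258 overlap between the lines.

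SCD led the order of levels in PATU-8902 DMSO at 172 ± 27.8 FPKM, followed by ACLY at 48.8 ± 10.8 FPKM (SD, n = 3 each). ACACA (34.3 FPKM) and ELOVL5 (32.01 FPKM) overlapped, as did FASN (20.7 FPKM) and ELOVL6 (18.2 FPKM), and ACSS2 (6.65 FPKM), FADS2 and FADS1 came last, each apart from the next. In PATU-8988T DMSO, FADS1 (81.0 FPKM), SCD (66.5 FPKM), ELOVL5 (58.6 FPKM) and ACLY (55.6 FPKM) overlapped from neighbour to neighbour. ACACA (19.8 FPKM) stood below them, and it and ELOVL6 (15.5 FPKM), FASN (11.4 FPKM), ACSS2 (8.15 FPKM) and FADS2 (8.12 FPKM) again overlapped in turn. At 24 h of inhibitor in PATU-8902, SCD reached 345 ± 90.2 FPKM and ELOVL6, at 37.9 ± 6.71 FPKM, had a higher mean than FASN (32.1 ± 7.74 FPKM), with overlapping ranges. In the same 24 h libraries ELOVL6 overlapped ACACA as well.

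Other genes around the pathway were counted from lists, all on the centred scale in PATU-8902 at 24 h, where 0.444% of all tested genes passed. Of 7 tested genes that control or supply fatty acid synthesis, 1 rose, INSIG1, at 34.0 ± 10.1 FPKM against 10.9 ± 0.75 FPKM in DMSO (log2 1.46 ± 0.09, limma adjusted p = 1.04e-07). SREBF1, the gene of the SREBP factor most tied to fatty acid synthesis, was at 4.97 ± 1.00 FPKM at 24 h and 4.93 ± 0.95 FPKM in DMSO (log2 -0.05 ± 0.09, not past the threshold). SLC25A1, the citrate carrier of mitochondria, was at 0.39 ± 0.16 without passing. The list median was 0.08, beside -0.02 over all genes.

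The partner enzymes of elongation and desaturation gave 1 call each. Of 7 tested genes of the elongation cycle, HSD17B12, the ketoacyl-CoA reductase of the cycle, rose by 0.41 ± 0.07 (97.9 ± 20.4 FPKM at 24 h, 69.5 ± 2.91 FPKM in DMSO; limma adjusted p = 0.00528), a call kept in 6 of 6 fits without a library. Of 5 tested desaturases and electron carriers, CYB5B, a cytochrome b5 that passes electrons, rose by 0.37 ± 0.06 (adjusted p = 0.00747). The CYB5B call was lost without 24 h replicate 3 and without DMSO replicate 2, and its change ran from 0.33 to 0.42 over the 6 fits. The list medians were -0.01 and 0.06. Neither gene passed as deposited (log2 0.47 ± 0.26 and 0.44 ± 0.28).

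Fatty acid pathways of the mitochondrion gave no call. Of 9 genes of mitochondrial fatty acid synthesis and 12 of beta-oxidation, 0 passed in either direction at 24 h, beside 0.444% of all tested genes. At so low a share, 0 calls in short lists say little about these pathways. The list medians were -0.11 each, with ranges of -0.41 to 0.39 and -0.29 to 0.08. HMGCS1 and SQLE, which encode enzymes of cholesterol synthesis, rose at 24 h by 1.69 and 1.503. At 6 h, when no member had passed, HMGCS1 had risen by 1.25, SQLE by 0.86 and INSIG1 by 1.73 ± 0.09. At both times each of these calls held in 6 of 6 fits without a library. As deposited, INSIG1 passed at both times, and HMGCS1 and SQLE at 24 h. Of those deposited calls HMGCS1 held in 6 of 6 fits without a library, INSIG1 at 24 h in 2 of 6 (log2 1.29 to 1.63), and SQLE (1.41 to 1.65) and INSIG1 at 6 h (1.48 to 1.82) in 0 of 6. From 6 h to 24 h INSIG1 stood at -0.27 ± 0.09 without passing, while SQLE (0.64 ± 0.05) and HMGCS1 (0.44 ± 0.07) rose. The HMGCS1 call was lost without 6 h replicate 3, and over the 6 fits its change ran from 0.42 to 0.45. In PATU-8988T at 6 h, INSIG1 (0.90 ± 0.09), HMGCS1 (0.81 ± 0.07) and SQLE (0.36 ± 0.05) passed after centring with no member beside them, and none of these 3 passed as deposited. The SQLE call was lost without 6 h replicate 2 or 3, and its change ran from 0.33 to 0.39 over the 6 fits.

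**Figure D5:**
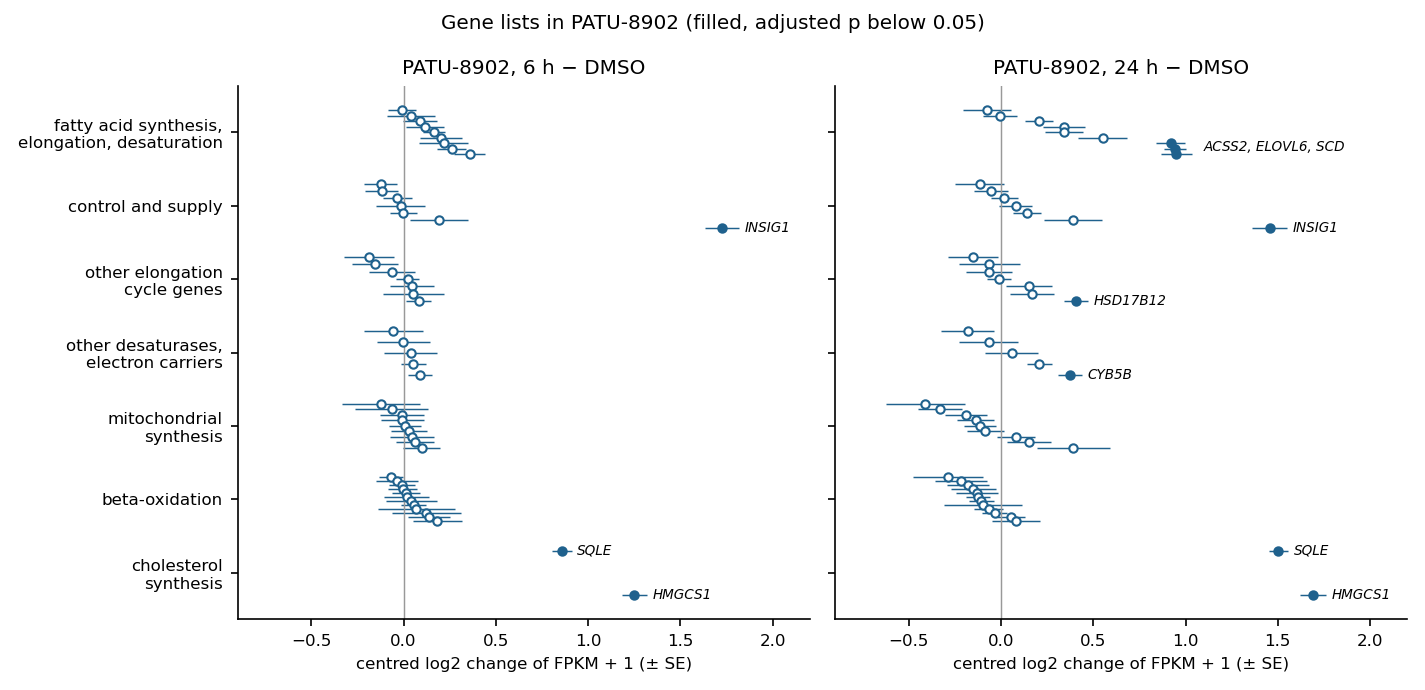
Centred log2 change ± SE of the genes reported in PATU-8902 at 6 h and 24 h of inhibitor against DMSO, grouped by list; filled points passed and are named. At 6 h INSIG1, HMGCS1 and SQLE are the filled points, and at 24 h ACSS2, ELOVL6, SCD, HSD17B12 and CYB5B are filled as well.

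The genes closest to each riser were found by the root mean square difference over the 4 centred log2 changes against DMSO. For ACSS2 they were LSS (0.0741), MVD (0.0782) and SREBF2 (0.0916), of which LSS and MVD encode enzymes of cholesterol synthesis. SREBF2, an SREBP gene like SREBF1, changed by 0.83 at 24 h and 0.25 at 6 h in PATU-8902. In PATU-8988T its changes were -0.15 at 24 h and -0.18 at 6 h. It was picked for its closeness to ACSS2, so these values are a description only. For ELOVL6 they were ACAT2 (0.0648), a thiolase, the long non-coding RNA gene OLMALINC (0.0721) and the aldolase gene ALDOC (0.0779). For SCD they were ACSL4 (0.108), which activates polyunsaturated fatty acids, BMI1 (0.166) and OLMALINC (0.169). OLMALINC is the next gene after SCD in RefSeq order and measured 11.7 ± 3.54 FPKM at 24 h and 5.69 ± 0.67 FPKM in DMSO in PATU-8902 (SD, n = 3 each). On the other side PKD2L1, at 0.0968 to 0.181 FPKM in all 9 PATU-8902 libraries, was too close to the floor to be read. BLOC1S2, the gene beyond it, averaged 12.8 ± 3.51 FPKM at 24 h and 12.3 ± 2.37 FPKM in DMSO in PATU-8902.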

How the data were processed

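Polyadenylated RNA of 18 libraries was sequenced as single-end reads with ERCC spike-ins mixed into RNA that had been matched by cell count, per the labels' protocols. The authors deposited 1 table of FPKM values, made with HISAT, Cufflinks and Cuffnorm on hg19 per the submitters' processing notes. Their versions, the annotation and the strand setting are not given in the sources used here. In the table were 26249 gene rows and 92 spike-in rows without counts. Sequencing depth is therefore unknown, and no interval for counting error can be had. A floor of 0.0795 to 0.118 FPKM was shared by 6993 to 7062 rows per library.

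Samples were grouped by the line and treatment in the labels. Values were tested as log2(FPKM + 1) for 11477 genes whose mean reached 1 FPKM. With limma 3.58.1 under R 4.3.3, a model using the trend of variance with level was fitted to 6 group means over 18 libraries (12 residual degrees of freedom), as deposited and after median-centring, with 9 contrasts, 2-sided tests and Benjamini-Hochberg adjustment over the genes tested. The model was tested on simulated centred data without shifts between libraries, so that test does not cover the deposited scale. The 9 members are named everywhere, list genes where they passed or, otherwise, up to 3 of a list with the smallest p, and the 3 genes most like each member that passed. Some genes of the lists are not reported here. The members, the lists and the median-centred scale were chosen with earlier results of these data known. Alternatives were a pseudocount of 0.1, no filter, rescaling by the spike-ins, the replicate number as a block and leaving out each library. P-values measure the spread between these libraries.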

Additional observations from a re-analysis of the deposited data

Results flagged for a closer look

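The 24 h effect of the inhibitor differed between the lines by the interaction test in 3 genes, on the centred log2 scale as PATU-8902 minus PATU-8988T. The difference was 1.013 for ACSS2 (0.95 in PATU-8902 and -0.06 in PATU-8988T), 0.8757 for ELOVL6 (0.94 and 0.07 in the same order) and 0.5699 for SCD (0.92 and 0.35). The SCD call held in only 2 of 12 cases with a library left out and was lost without the filter on low values (limma adjusted p = 0.0883) and with the replicate block (0.211). Both lines had SCD above DMSO in every centred 24 h library. At 6 h ACSS2 was higher than DMSO in 3 of 3 PATU-8902 libraries and lower in 3 of 3 PATU-8988T libraries after centring. That difference of 0.541 did not pass (limma adjusted p = 0.392), except without PATU-8988T DMSO replicate 1, in a fit that called 2308 genes. As deposited none of the 4 differences passed. The DMSO library named here had the lowest median FPKM of the 18, and its part in these results was measured only by leaving it out.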

How the results depend on the processing

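Each of the 81 member changes per scale kept its direction and side of the threshold with a pseudocount of 0.1, apart from sign changes in 2 uncalled values per scale. Rescaling the deposited values by the spike-ins changed no call, with sign changes in 3 uncalled values. Those values were already on the study's spike-in scale, so this alternative says little. Median-centring gave 3 members called in place of 0 at 24 h in PATU-8902, 3 in place of 0 between 24 h and 6 h there, and 3 in place of 0 for the 24 h line difference, and it reversed ELOVL6 between the lines in DMSO to -0.2252. Without the filter, FASN between the lines as deposited (adjusted p = 0.0632) and the centred SCD line difference (adjusted p = 0.0883) lost their calls. With the replicate number as a block within each line, the centred SCD line difference stayed at 0.5699 and lost its call (limma adjusted p = 0.211). ELOVL5 between the lines as deposited was at -0.70 and lost its call, and no other call changed. Blocks within a line make that fit compare the lines at the level of replicate 1, so the ELOVL5 value does not measure pairing. Same-numbered libraries correlated from -0.222 to 0.143 over 18 pairs, 3 of them over 0.1, so the numbers were not taken as pairs.

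Leaving out 1 library gave 0 to 6 members called at 24 h in PATU-8988T as deposited and 0 to 3 centred, 0 to 2 at 6 h there centred, 0 to 1 for the 24 h line difference as deposited and 2 to 5 centred, 0 to 3 for the 6 h line difference centred, and between the lines 4 to 6 as deposited and 8 to 9 centred. The counts in PATU-8902 stayed at 3 for 24 h against DMSO and against 6 h, centred. Each count above 0 for PATU-8988T against DMSO, the 1 and the 5 for the 24 h line difference and the 3 for the 6 h line difference came without PATU-8988T DMSO replicate 1, and without it the lines in DMSO gave 4 as deposited and 8 centred. Of all tested genes, the fits behind the 1, the 5 and the 3 called 14, 636 and 2308. The cause of these changes was not tested. The depth is unknown, so no limit from counting can be given, and FADS1 in PATU-8902 is close to the floor.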
